A study of Mus musculus with 3 samples.

Results

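The genes described here are 32 genes of mitosis, taken by symbol from the 33696 genes of the count tables, and measured in immune cells of mouse bronchoalveolar lavage, the fluid flushed through the airspaces. They fall into 12 genes of cyclins, kinases and the ubiquitin enzymes that end mitosis, 9 of the spindle, 7 of the kinetochore and centromere, and 4 of chromosome condensation. The mice were wild-type C57BL/6J, 12 weeks old, and breathed filtered air, ozone at 1 ppm or ozone at 1.5 ppm for 3 h. Lavage cells of the right lung lobes were taken 22 to 24 h later, pooled from 3 to 4 mice per group and run as 1 droplet library per group. Each transcript molecule carries a unique molecular identifier (UMI) read next to its poly(A) end.

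Because each group is 1 pooled library, there is no replicate and no test between groups, and the mice of a pool cannot be told apart. Levels are UMIs summed over cells per 1000000 summed UMIs (CPM), with exact Poisson 95% intervals. Binomial 95% intervals by the Clopper-Pearson method go with each share of cells. All intervals cover counting error only, so a difference outside them may still lie within the spread between mice, days or preparations. Those of levels and ratios treat each UMI as independent and leave out which cells were drawn. In air, 201 of 3257 cells, described below, held 73.4% of the UMIs of these genes. Level and ratio intervals are thus too narrow even within a pool, and intervals that do not overlap do not settle a difference. A 1.5-fold ratio is the size from which a gene is counted as higher or lower. CPM values are compared between libraries for 1 gene, not between genes, since they are not set against length.

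Mitosis begins when Cdk1, the mitotic kinase, is switched on by A- and B-type cyclins. Chromosomes are then condensed, microtubule motors build a bipolar spindle, and kinetochores couple each chromosome to it. Cdc20 and Ube2c direct the anaphase-promoting complex, which marks mitotic proteins for destruction, and Kif23 and Prc1 act on the midzone where the cell then divides. Alveolar macrophages, the resident phagocytes of the airspace, can renew themselves by division in place, and transcripts of these genes mark cells between late S phase and the end of division.

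After barcodes with over 10% mitochondrial UMIs were set aside (34.2%, 30.6% and 9.07% of barcodes in air, 1 ppm and 1.5 ppm), 3479, 2241 and 6577 cells remained, with medians of 13663, 15743 and 11986 UMIs per cell. The label "immune cells" was checked against marker genes. Clusters named from at least 3 alveolar macrophage markers (such as Chil3, Marco, Siglecf and Car4) are called alveolar-macrophage-like here, by naming rules given below. They held 3314, 2128 and 5639 cells, from 95.3% of the kept cells in air to 85.7% at 1.5 ppm. Their median mitochondrial share was 4.12%, 3.97% and 2.31%, so the 1.5 ppm library stood apart in RNA composition as well as in the measures below. Between 1 and 7 kept barcodes were shared by any pair of libraries.

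In alveolar-macrophage-like cells the 32 genes together made up 1304 CPM in air (95% interval 1294 to 1314), 1196 CPM at 1 ppm (1185 to 1207) and 2764 CPM at 1.5 ppm (2753 to 2775). The 1.5 ppm library thus held 2.12 times the air level (2.10 to 2.14) and 2.31 times the 1 ppm level (2.29 to 2.33). At 1.5 ppm against air, all 32 genes had a log2 ratio above 0 and 30 were at least 1.5-fold higher, where 11.6% of all 12874 genes with at least 100 UMIs were at least 1.5-fold higher and 4.27% lower. At least 2-fold higher were 16 of the 32, against 3.5% of all genes. The median log2 ratio was 1.00 for the 32 genes and -0.04 for all genes. At 1 ppm against air none was 1.5-fold higher (2.01% of all genes were) and 1 was 1.5-fold lower (3.04% of all genes), with a median of -0.10 beside -0.05 for all genes. At 1.5 ppm against 1 ppm, 31 were at least 1.5-fold higher (10.4% of all genes), with a median of 1.15. These comparisons share libraries, so their values are set side by side and are not independent. In a lavage pool, more dividing cells and more transcript per dividing cell add up to the same summed level. Cell shares and levels within chosen cells are given further below, where the levels depend on how the cells are chosen.

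The mitochondrial share moved with this result. In cells with 2.5 to 4% mitochondrial UMIs, a range that all 3 libraries fill, 16 rather than 30 genes were at least 1.5-fold higher at 1.5 ppm than in air (8.69% of all genes). Against 1 ppm, 20 rather than 31 were (7.94% of all genes), and the medians were 0.59 and 0.76. The summed level in that range was 1538, 1394 and 2436 CPM in air, 1 ppm and 1.5 ppm.

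**Figure D1:**
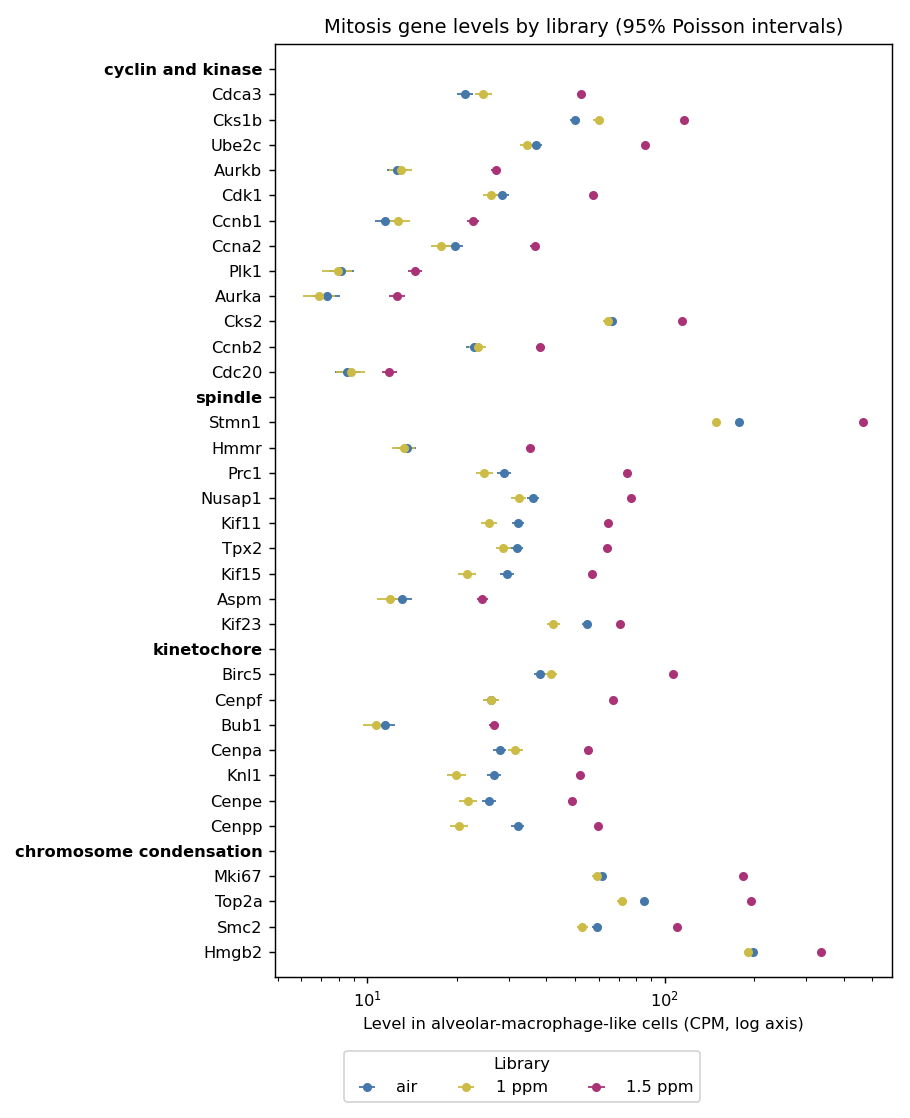
Level of each of the 32 mitosis genes in alveolar-macrophage-like cells (CPM, log axis) in the air, 1 ppm and 1.5 ppm libraries, with 95% Poisson intervals, ordered within each group by the ratio of 1.5 ppm to air. The 1.5 ppm point lies to the right of both others for every gene, by least for Cdc20 and Kif23, and positions are not comparable between genes.

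Among the 12 cyclin, kinase and ubiquitin genes, 11 were at least 1.5-fold higher at 1.5 ppm than in air, and the group's summed level was 590 CPM at 1.5 ppm beside 294 CPM in air, while at 1 ppm it was 1.02 times that of air (0.996 to 1.05). Cdca3, which triggers the destruction of the mitosis-entry inhibitor Wee1, stood at 21.4 CPM in air (20.1 to 22.7), 24.5 CPM at 1 ppm (23.0 to 26.2) and 52.4 CPM at 1.5 ppm (50.9 to 53.9). Its log2 ratio of 1.5 ppm to air was 1.29, the highest of its group. Cks1b, a small subunit that binds cyclin-dependent kinases, stood at 50.1 CPM (48.1 to 52.1), 60.0 CPM (57.6 to 62.6) and 116 CPM (114 to 119) in the same order. Its 1 ppm level also lay above the air interval, with log2 ratios of 0.26 at 1 ppm and 1.22 at 1.5 ppm. Ube2c, the ubiquitin-conjugating enzyme of the anaphase-promoting complex, stood at 37.0 CPM in air (35.3 to 38.7), 34.5 CPM at 1 ppm (32.6 to 36.4) and 85.8 CPM at 1.5 ppm (83.9 to 87.7), a log2 ratio of 1.21 for 1.5 ppm to air.

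The smallest ratio of the group belonged to Cdc20, the activator of the same complex. It stood at 8.56 CPM in air (7.77 to 9.41), 8.80 CPM at 1 ppm (7.87 to 9.80) and 11.9 CPM at 1.5 ppm (11.2 to 12.6). The air and 1 ppm intervals overlapped and the 1.5 ppm interval lay above both, but at 1.39-fold (1.24 to 1.56) over air it did not reach 1.5-fold. In the cells with 2.5 to 4% mitochondrial UMIs its log2 ratio to air was -0.32, and it was the only 1 of the 32 genes below 0 against air in any of the 9 alternative settings tried for this ratio. The other 8 genes of the group had log2 ratios of 1.5 ppm to air from 0.74 to 1.11. They were Aurkb, the kinase that corrects chromosome attachment (1.11), Cdk1 (1.01), its B- and A-type cyclins Ccnb1 (0.98), Ccna2 (0.90) and Ccnb2 (0.74), the kinases Plk1 (0.82) and Aurka (0.79), which mature the centrosomes, and the Cdk-binding subunit Cks2 (0.78). At 1 ppm against air the 12 genes ran from -0.15 to 0.26, with 6 of 12 above 0.

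The 9 spindle genes summed to 417, 350 and 933 CPM in air, 1 ppm and 1.5 ppm, and 8 of 9 were at least 1.5-fold higher at 1.5 ppm than in air. Stmn1, which destabilises microtubules and is switched off by mitotic phosphorylation, stood at 177 CPM in air (174 to 181), 149 CPM at 1 ppm (146 to 153) and 466 CPM at 1.5 ppm (461 to 470). The 3 intervals did not overlap, with log2 ratios to air of -0.25 at 1 ppm and 1.39 at 1.5 ppm. Hmmr, a spindle-pole adaptor and hyaluronan receptor, stood at 13.6 CPM in air (12.6 to 14.6), 13.3 CPM at 1 ppm (12.1 to 14.5) and 35.3 CPM at 1.5 ppm (34.1 to 36.6). Air and 1 ppm overlapped, and the log2 ratio of 1.5 ppm to air was 1.38. Prc1, which bundles the microtubules of the spindle midzone, stood at 28.8 CPM (27.3 to 30.3), 24.8 CPM (23.2 to 26.4) and 74.9 CPM (73.1 to 76.7) in air, 1 ppm and 1.5 ppm, also a log2 ratio of 1.38 for 1.5 ppm to air.

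Kif23, the motor of the central spindle that is needed for the cell to divide in the end, had the smallest ratio of all 32 genes. It stood at 54.7 CPM in air (52.6 to 56.8), 42.3 CPM at 1 ppm (40.2 to 44.4) and 70.8 CPM at 1.5 ppm (69.0 to 72.5). The 3 intervals were apart, with 1 ppm below air at a log2 ratio of -0.37 and 1.5 ppm above it at 0.37. The remaining 5 spindle genes had log2 ratios of 1.5 ppm to air from 0.90 to 1.09. They were Nusap1 (1.09), which gathers microtubules around chromosomes, the motors Kif11 (1.01) and Kif15 (0.95), which push the spindle poles apart, Tpx2 (1.00), which starts microtubules near chromatin and activates Aurka, and the spindle-pole gene Aspm (0.90). At 1 ppm all 9 spindle genes lay below air, from -0.44 for Kif15 to -0.03 for Hmmr, and their summed level was 0.839 times that of air (0.821 to 0.858). None of the 9 was 1.5-fold lower.

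**Figure D2:**
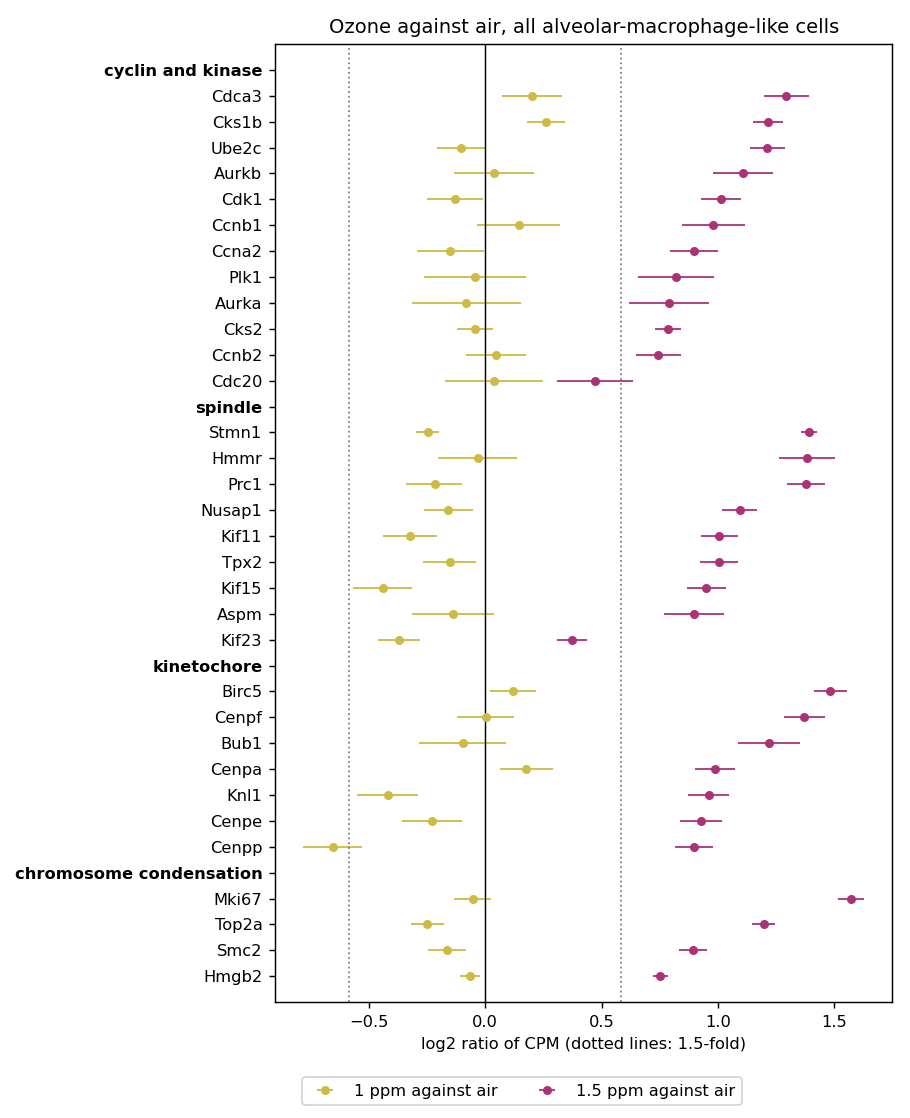
The log2 ratio of CPM to air for each mitosis gene in alveolar-macrophage-like cells at 1 ppm and at 1.5 ppm, with exact conditional 95% intervals for counting error and dotted lines at 1.5-fold. At 1.5 ppm, 30 of 32 points lie beyond the upper line, while at 1 ppm the points lie around 0 and 1, Cenpp, lies beyond the lower line.

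All 7 kinetochore and centromere genes were at least 1.5-fold higher at 1.5 ppm than in air, with summed levels of 188, 172 and 416 CPM in air, 1 ppm and 1.5 ppm. Birc5 encodes survivin, which holds the chromosomal passenger complex with Aurkb at centromeres. It stood at 38.1 CPM in air (36.4 to 39.8), 41.4 CPM at 1 ppm (39.4 to 43.5) and 107 CPM at 1.5 ppm (104 to 109), with a log2 ratio of 1.48 for 1.5 ppm to air. Cenpf, a kinetochore protein that accumulates in G2, stood at 26.0 CPM in both air (24.6 to 27.5) and 1 ppm (24.4 to 27.7) and at 67.3 CPM at 1.5 ppm (65.6 to 69.0), a log2 ratio of 1.37 for 1.5 ppm to air. Bub1, a kinase of the spindle checkpoint, stood at 11.5 CPM (10.5 to 12.4), 10.7 CPM (9.70 to 11.8) and 26.7 CPM (25.6 to 27.8) in air, 1 ppm and 1.5 ppm, a log2 ratio of 1.22 for 1.5 ppm to air. For Birc5, Cenpf and Bub1 the air and 1 ppm intervals overlapped.

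Cenpp, part of the constitutive centromere network, had the smallest ratio of the group at 1.5 ppm and the lowest of all 32 at 1 ppm. It stood at 32.1 CPM in air (30.5 to 33.7), 20.3 CPM at 1 ppm (18.9 to 21.8) and 59.8 CPM at 1.5 ppm (58.2 to 61.4). No intervals overlapped, with log2 ratios to air of -0.66 at 1 ppm and 0.90 at 1.5 ppm. Within the group the outer kinetochore scaffold Knl1 also lay below air at 1 ppm (-0.42), as did Cenpe (-0.23), a motor that carries chromosomes to the spindle equator, while Cenpa, the histone H3 variant of centromeres, lay above (0.18). At 1.5 ppm these 3 had log2 ratios to air of 0.96, 0.93 and 0.99.

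The 4 condensation genes were all at least 1.5-fold higher at 1.5 ppm, with sums of 405, 374 and 824 CPM in air, 1 ppm and 1.5 ppm. Mki67, the proliferation marker Ki-67 that coats mitotic chromosomes, had the largest ratio of all 32 genes. It stood at 61.5 CPM in air (59.3 to 63.7), 59.2 CPM at 1 ppm (56.8 to 61.8) and 183 CPM at 1.5 ppm (180 to 186), a log2 ratio of 1.57 for 1.5 ppm to air. Top2a, the topoisomerase that untangles sister DNA, stood at 85.3 CPM (82.7 to 87.9), 71.8 CPM (69.1 to 74.5) and 195 CPM (193 to 198) in air, 1 ppm and 1.5 ppm, a log2 ratio of 1.20 for 1.5 ppm to air. Smc2, the core of condensin, stood at 59.3 CPM in air (57.1 to 61.4), 52.9 CPM at 1 ppm (50.6 to 55.3) and 110 CPM at 1.5 ppm (108 to 112), a log2 ratio of 0.89 for 1.5 ppm to air. An antisense gene, Smc2os, lies over Smc2, and the sources used here do not give whether counting used strand. Hmgb2, a chromatin protein that bends DNA, stood at 199 CPM in air (195 to 203), 190 CPM at 1 ppm (186 to 195) and 335 CPM at 1.5 ppm (332 to 339), the smallest log2 ratio of the group at 0.75. For Top2a and Smc2 the 1 ppm interval lay below that of air, for Mki67 it overlapped it.

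The genes share more than their function. Many promoters of mitosis genes carry a cell cycle homology region, in its plainest form TTTGAA, and CCAAT boxes bound by the factor NF-Y. Promoter windows from RefSeq (GRCm38.p6, 250 bases before to 50 after a start) matched 28 of the 32 genes in 29 windows. TTTGAA, on either strand, was in 22 of 29 windows, where 17.9% of all 32851 windows held it, and CCAAT, on either strand, in 24 of 29, where 37.4% of all did. No TTTGAA match overlapped a CCAAT match in the 29 windows, while 2 CCAAT matches of opposite strands can share bases, as in Ube2c. In the 100 bases from 50 before to 50 after the start, TTTGAA was in 21 of 29 windows against 4.94% of all windows. Over the whole windows, by group, TTTGAA was in 8 of 10 cyclin and kinase windows, 7 of 8 spindle windows, 3 of 7 kinetochore windows and 4 of 4 condensation windows. Of the 30 windows that 25 of the 30 S phase genes matched, it was in 3, and in 1 within those 100 bases. CCAAT was in 19 of those 30 S phase windows. Of 55 further mitosis genes, described below, 45 matched 51 windows. TTTGAA was in 27 of these 51, in 23 within the 100 bases, and CCAAT was in 37. Neither motif is therefore particular to the 32 genes. A match is a description of letters and says nothing of binding in these cells.

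Printed 5′ to 3′ along the gene, with TTTGAA and CCAAT of either strand in capitals, are the windows of 3 genes with large ratios at 1.5 ppm, of the 2 genes with the smallest, and of Birc5, which has a large ratio and neither motif. They lie at chr7:135716330-135716629 (minus strand, Mki67), chr6:124829926-124830225 (plus, Cdca3), chr2:164769679-164769978 (plus, Ube2c), chr4:118437294-118437593 (minus, Cdc20), chr9:61946750-61947049 (minus, Kif23) and chr11:117848987-117849286 (plus, Birc5), all on GRCm38.p6.
Mki67: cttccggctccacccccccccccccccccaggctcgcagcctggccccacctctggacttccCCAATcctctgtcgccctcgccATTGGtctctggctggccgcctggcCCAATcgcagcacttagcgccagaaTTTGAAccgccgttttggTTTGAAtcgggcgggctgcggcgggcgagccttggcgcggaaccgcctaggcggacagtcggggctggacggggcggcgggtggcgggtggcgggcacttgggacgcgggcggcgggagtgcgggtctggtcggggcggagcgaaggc
Cdca3: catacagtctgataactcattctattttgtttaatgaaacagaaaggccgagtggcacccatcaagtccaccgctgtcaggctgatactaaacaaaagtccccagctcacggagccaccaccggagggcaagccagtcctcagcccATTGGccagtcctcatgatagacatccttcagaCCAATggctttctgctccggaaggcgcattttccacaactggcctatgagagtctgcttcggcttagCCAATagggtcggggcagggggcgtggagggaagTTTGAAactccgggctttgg
Ube2c: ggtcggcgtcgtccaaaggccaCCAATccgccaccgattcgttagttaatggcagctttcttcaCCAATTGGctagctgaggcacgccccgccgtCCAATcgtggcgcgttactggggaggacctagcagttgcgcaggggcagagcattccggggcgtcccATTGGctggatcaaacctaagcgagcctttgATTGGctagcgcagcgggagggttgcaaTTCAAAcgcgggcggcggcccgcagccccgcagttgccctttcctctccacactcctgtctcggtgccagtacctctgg
Cdc20: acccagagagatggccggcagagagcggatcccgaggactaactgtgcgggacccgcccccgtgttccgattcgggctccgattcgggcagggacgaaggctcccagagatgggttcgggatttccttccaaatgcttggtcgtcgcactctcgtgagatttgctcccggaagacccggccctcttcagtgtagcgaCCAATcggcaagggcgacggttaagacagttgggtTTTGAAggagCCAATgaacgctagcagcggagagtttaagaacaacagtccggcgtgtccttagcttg
Kif23: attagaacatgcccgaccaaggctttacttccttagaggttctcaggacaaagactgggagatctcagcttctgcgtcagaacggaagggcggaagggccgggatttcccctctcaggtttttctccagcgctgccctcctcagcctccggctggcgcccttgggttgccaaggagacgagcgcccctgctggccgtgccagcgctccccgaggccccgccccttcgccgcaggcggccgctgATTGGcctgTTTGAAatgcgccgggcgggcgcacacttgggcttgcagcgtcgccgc
Birc5: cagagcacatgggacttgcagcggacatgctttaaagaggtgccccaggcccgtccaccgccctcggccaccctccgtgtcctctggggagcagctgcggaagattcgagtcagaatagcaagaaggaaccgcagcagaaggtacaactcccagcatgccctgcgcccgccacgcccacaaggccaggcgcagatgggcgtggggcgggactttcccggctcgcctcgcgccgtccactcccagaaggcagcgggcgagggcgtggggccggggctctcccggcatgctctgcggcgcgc
Cdc20 and Kif23, whose ratios at 1.5 ppm were the smallest, hold 1 TTTGAA each, as Cdca3 and Ube2c do, so these letters did not separate small from large ratios among the windows shown.

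Genes of the same processes that are not among the 32 were taken as comparison lists. Of 55 further mitosis genes, used below to find cycling cells, 40 were at least 1.5-fold higher at 1.5 ppm than in air and none 1.5-fold lower, with a median log2 ratio of 0.84. The largest were Cenpm (5.18, 5.67 and 15.2 CPM in air, 1 ppm and 1.5 ppm), Dlgap5 (9.91, 7.83 and 24.8 CPM), Cdca8 (16.4, 16.4 and 40.6 CPM) and Spc24 (9.93, 9.44 and 23.5 CPM). Of 30 S phase genes, 20 were at least 1.5-fold higher, with a median of 0.68. Pclaf, which binds the replication clamp, had a log2 ratio of 1.63 for 1.5 ppm to air, Dut, which keeps uracil out of DNA, 1.33, Gmnn, which blocks a second firing of origins, 1.21, and Cdc6, which loads the helicase, 1.13. Of 30 cell cycle control genes, 10 were at least 1.5-fold higher and 2 lower, with a median of 0.23. Cdkn2d, an inhibitor of Cdk4 and Cdk6, had 1.50, the repressor E2f8 1.36, and the G1/S cyclins Ccne1 and Ccne2 0.96 and 0.88. The 2 lower ones were Ccnd3 (-0.65) and Ccnd2 (-0.59), both D-type cyclins and named after their values were seen. The D-type cyclin Ccnd1 went the other way (0.59), on 33, 22 and 91 UMIs in air, 1 ppm and 1.5 ppm. At 1 ppm against air the medians of these lists were -0.23, -0.10 and -0.21, and no gene of them was 1.5-fold higher. Of the 55 mitosis genes 3 were 1.5-fold lower, Ect2 (-0.69), Cdc25c (-0.66) and Ncapg (-0.63), and of the other lists none.

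To describe cell numbers and levels per cell, cells were chosen by the 55 further mitosis genes, none of which is among the 32, after each cell had been thinned to 5000 UMIs. Of the alveolar-macrophage-like cells, 57, 31 and 310 in air, 1 ppm and 1.5 ppm were shallower and left out. With 3 or more UMIs of those 55 genes a cell was first counted as cycling, which took 44.3% of cells in air (42.6 to 46.1), 38.6% in the 1 ppm library (36.5 to 40.7) and 51.2% in the 1.5 ppm library (49.9 to 52.6). Without thinning the shares were 86.7%, 87.6% and 84.3%. The limit was loose: these cells had UMIs of a median of 2, 1 and 3 of the 32 genes in air, 1 ppm and 1.5 ppm. Within them 28 of 32 genes were at least 1.5-fold higher at 1.5 ppm than in air (9.81% of all genes), with a median log2 ratio of 0.78, and the median of 1 ppm to air was 0.09.

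A limit of 10 UMIs, chosen after seeing the data, marked cells that held the programme as a whole. They had UMIs of a median of 19, 19 and 18 of the 32 genes in air, 1 ppm and 1.5 ppm, against 1, 1 and 2 in the cells under 10. They were 201 of 3257 cells in air (6.17%, 5.37 to 7.05), 110 of 2097 at 1 ppm (5.25%, 4.33 to 6.29) and 919 of 5329 at 1.5 ppm (17.2%, 16.2 to 18.3). The share at 1.5 ppm was 2.79 times that of air and 3.29 times that of 1 ppm, and its interval lay apart from both, while those of air and 1 ppm overlapped. These cells held 73.4%, 71.5% and 82.7% of the UMIs of the 32 genes, beside 9.26%, 8.75% and 26.2% of all UMIs. At least 3 UMIs of the 30 S phase genes were found in 96.5%, 94.5% and 97.3% of them. Over all thinned alveolar-macrophage-like cells these shares were 39.7%, 35.5% and 53.8%, so this limit is also loose and does not place a cell in S phase. A count by the 32 genes themselves gave a similar order, with UMIs of at least 10 of them in 5.53%, 5.10% and 16.6% of cells.

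The cells with 10 or more UMIs were deeper than the others, with medians of 22190, 28151 and 22732 UMIs against 13690, 15864 and 12522 for the rest in air, 1 ppm and 1.5 ppm. All of the cells with 10 or more UMIs came from clusters named by alveolar macrophage markers. Finding all 13 of that list in each library was therefore no separate check of what they are. These markers summed to 12049, 12897 and 9764 CPM, beside 13997, 15776 and 12030 CPM in the cells under 10. Of 10 T and NK cell markers 9 were at 0 in air and at 1 ppm and 2 at 1.5 ppm, with sums of 0.218, 0.613 and 2.37 CPM. Of the other lists, the 5 erythrocyte markers summed to 6.32, 0.613 and 63.5 CPM in air, 1 ppm and 1.5 ppm, the 9 airway epithelial markers to 109, 82.4 and 140 CPM, and the 8 conventional dendritic cell markers to 575, 577 and 525 CPM. The remaining 5 lists (neutrophil, B cell, migratory dendritic cell, alveolar epithelial, C1q or monocyte) summed to at most 63.7 CPM in any library. The part of free RNA or doublets in these sums was not tested. Their share was higher at 1.5 ppm in every band of mitochondrial share examined. In the band of 3 to 4% it was 7.07% (5.53 to 8.88) in air, 6.43% (4.78 to 8.44) at 1 ppm and 17.2% (14.2 to 20.5) at 1.5 ppm, and in the band of 6 to 10% it was 6.11%, 5.45% and 28.0%. In the band under 2% the air and 1 ppm libraries had 67 and 43 cells, and their intervals reached 12.5% and 19.1% beside 14.7% at 1.5 ppm.

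**Figure D3:**
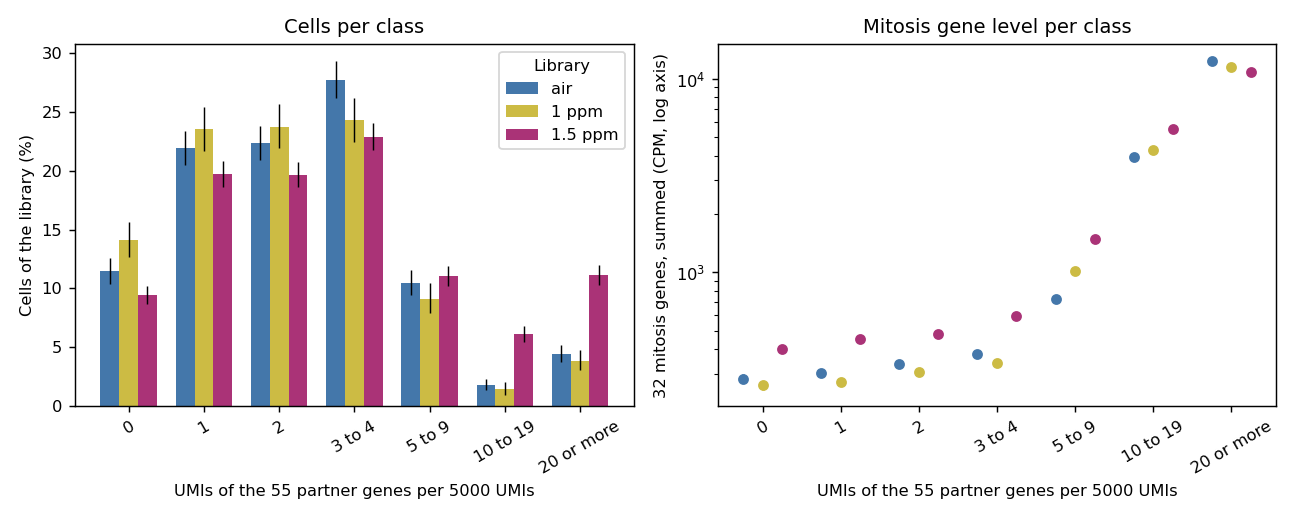
Left, the percent of each library's alveolar-macrophage-like cells by the number of UMIs of the 55 further mitosis genes per 5000 UMIs, with 95% binomial intervals. Right, the summed level of the 32 mitosis genes (CPM, log axis) in the same classes. From 10 UMIs on, the 1.5 ppm bars are the tallest (11.1% at 20 or more, beside 4.39% in air and 3.81% at 1 ppm), and in the class of 20 or more the level at 1.5 ppm (10872 CPM) is below that of air (12285 CPM).

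Within the cells of 10 or more UMIs the direction turned. The summed level of the 32 genes was 10358 CPM in air (10265 to 10452), 9786 CPM at 1 ppm (9679 to 9894) and 8786 CPM at 1.5 ppm (8748 to 8824), so that 1.5 ppm held 0.848 times the air level (0.840 to 0.857). None of the 32 was 1.5-fold higher at 1.5 ppm than in air and 6 were 1.5-fold lower, where 6.04% and 8.57% of all genes were. Of the 32, 29 lay below 0, with a median of -0.33 beside -0.15 for all genes. The 6 were Cdc20 (-1.02), Kif23 (-0.75), Ccna2 (-0.63), Plk1 (-0.62), Ccnb2 (-0.60) and Aspm (-0.60). The 3 above 0 were Cks1b (0.33), Mki67 (0.13) and Stmn1 (0.03). Against 1 ppm the median was -0.26, and the lowest was again Cdc20, at -1.13. The comparison lists also lay below air at 1.5 ppm in these cells. Their medians were -0.46 (the 55 mitosis genes), -0.23 (S phase) and -0.43 (cell cycle control). The 55 genes, which chose these cells, summed to 0.723 times the air level, and 21 of the 55 were 1.5-fold lower. The turn was thus not particular to the 32 genes.

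Cdc20 stood at 81.7, 88.5 and 40.5 CPM in these cells in air, 1 ppm and 1.5 ppm, and Kif23 at 370, 320 and 220 CPM. The same 2 genes had the smallest ratios over all alveolar-macrophage-like cells. Cks1b stood at 196, 226 and 246 CPM, Mki67 at 569, 560 and 623 CPM, and Stmn1 at 1396, 1220 and 1424 CPM. Cenpp was lower than in air in both ozone libraries, at 292, 180 and 199 CPM. At 1 ppm against air the median was -0.02 and Cenpp alone was 1.5-fold different (-0.69), where 6.79% of all genes were 1.5-fold lower and 4.89% higher.

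The sign depended on where the limit was set. In cells with 10 to 19 UMIs of the 55 genes (58, 30 and 326 cells in air, 1 ppm and 1.5 ppm) the 32 genes summed to 3929, 4280 and 5468 CPM, higher at 1.5 ppm than in air. In cells with 20 or more (143, 80 and 593 cells) they summed to 12285, 11522 and 10872 CPM, lower at 1.5 ppm. In the cells under 10, 23 of 32 genes were at least 1.5-fold higher at 1.5 ppm than in air (9.69% of all genes), with a median of 0.95, at summed levels of 383, 374 and 654 CPM. In cells with no UMI of the 55 genes left after thinning the sum was 283, 262 and 402 CPM. Free RNA from other cells was not separated from a cell's own RNA at these low levels, and its part was not tested.

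**Figure D4:**
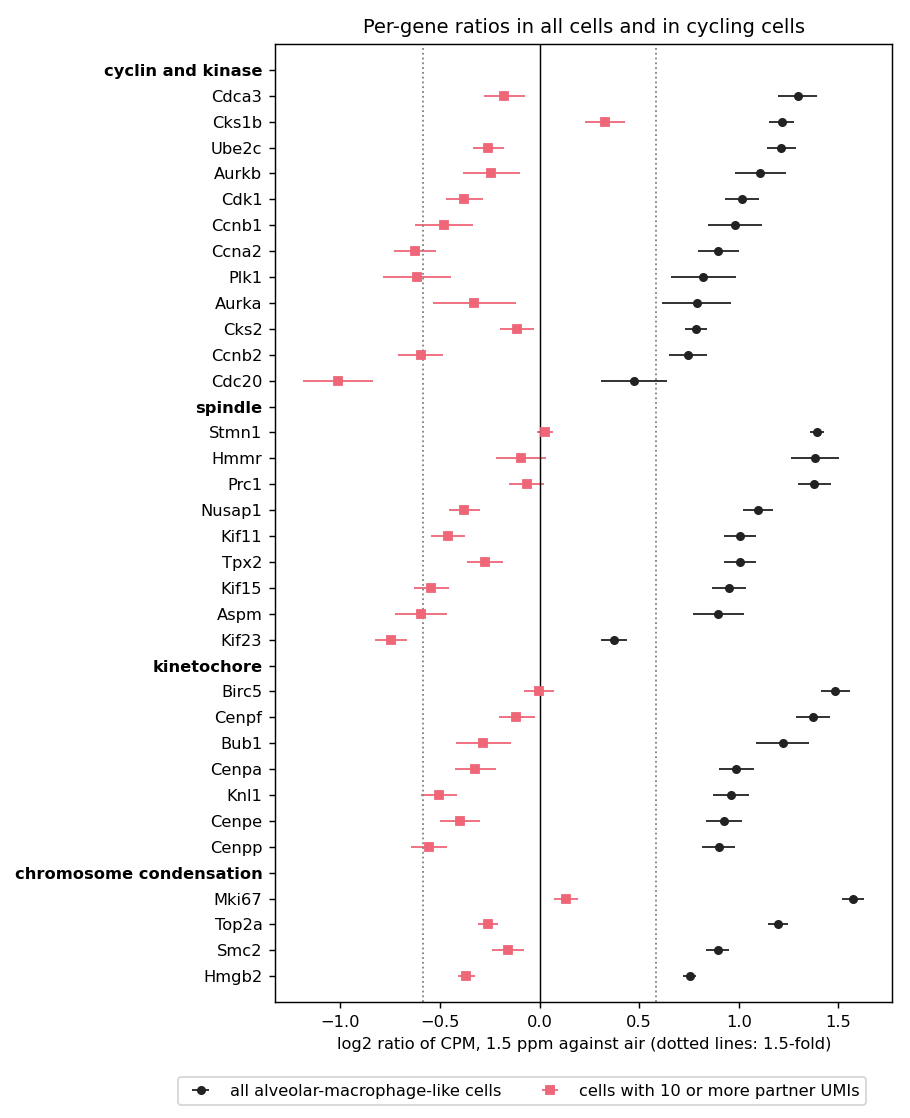
The log2 ratio of 1.5 ppm to air for each mitosis gene over all alveolar-macrophage-like cells (circles) and in cells with 10 or more UMIs of the 55 further mitosis genes (squares), with exact conditional 95% intervals for counting error and dotted lines at 1.5-fold. All 32 circles lie above 0 and 29 of 32 squares below it, and Cdc20 has the lowest square.

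Clusters made without the 32 genes, the 3 comparison lists or histone genes still set cycling cells apart, since other genes vary with them. A cluster mostly of 1 library may reflect that library, not a state of the cells. Cluster 3 (1282 cells) held 7.42% of alveolar-macrophage-like cells in air, 6.77% at 1 ppm and 15.8% at 1.5 ppm, and the 32 genes summed to 7805, 7226 and 6551 CPM in it. Cluster 11 held 0.634%, 0.517% and 3.78%, with 213 of its 245 cells from 1.5 ppm, and the 32 genes summed to 8350, 7572 and 9932 CPM in it. So the sum was lowest at 1.5 ppm in cluster 3 and highest there in cluster 11.

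Cluster 14 (104 cells) ran the other way, with 38, 36 and 30 cells, or 1.15% in air (0.813 to 1.57), 1.69% in the 1 ppm library (1.19 to 2.33) and 0.532% in the 1.5 ppm library (0.359 to 0.759). The 32 genes summed to 4940, 4377 and 8832 CPM in it. Single genes, named after their values were seen, differed from cluster 3 in both directions. Ccnb2 stood at 340 CPM beside 91.5 CPM in cluster 3, Cdc20 at 106 CPM beside 33.7 CPM, and Cenpa at 293 CPM beside 118 CPM. Prc1 stood lower, at 80.6 CPM beside 198 CPM, as did Aurkb, at 19.4 CPM beside 73.4 CPM, and Kif23, at 150 CPM beside 188 CPM, while Plk1 was at 41.2 CPM beside 41.9 CPM. Its S phase genes were low, at 685 CPM in sum beside 4202 CPM in cluster 3, and so was Top2a, at 130 CPM beside 546 CPM. The cells with 10 or more UMIs of the 55 genes sat in these clusters in different proportions in each library. Cluster 3 made up 75.1%, 79.1% and 68.9% of them in air, 1 ppm and 1.5 ppm, cluster 11 made up 8.46%, 8.18% and 20.6%, and cluster 14 made up 7.96% in air (4.62 to 12.6), 7.27% in the 1 ppm library (3.19 to 13.8) and 1.96% in the 1.5 ppm library (1.16 to 3.08). Without cluster 14, Cdc20 stood at 75.9, 79.8 and 38.0 CPM in those cells in air, 1 ppm and 1.5 ppm. The log2 ratio of 1.5 ppm to air was then -0.53 for Ccnb2, with a median of -0.35 over the 32 genes, about as low as with it.

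Cluster 19 (84 cells, of which 12, 2 and 70 from air, 1 ppm and 1.5 ppm) had a different mixture, with sums of 6003, 6851 and 6707 CPM. Kif15 stood at 431 CPM, Knl1 at 432 CPM and Cenpp at 529 CPM in it, beside 167, 150 and 173 CPM in cluster 3, while Ube2c stood at 32.4 CPM beside 210 CPM and Ccna2 at 38.6 CPM beside 108 CPM. Its mitochondrial share was 7.33% of UMIs beside 2.63% in cluster 3, its median UMI count 8682 beside 22995, and the part of RNA quality in its mixture was not tested.

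**Figure D5:**
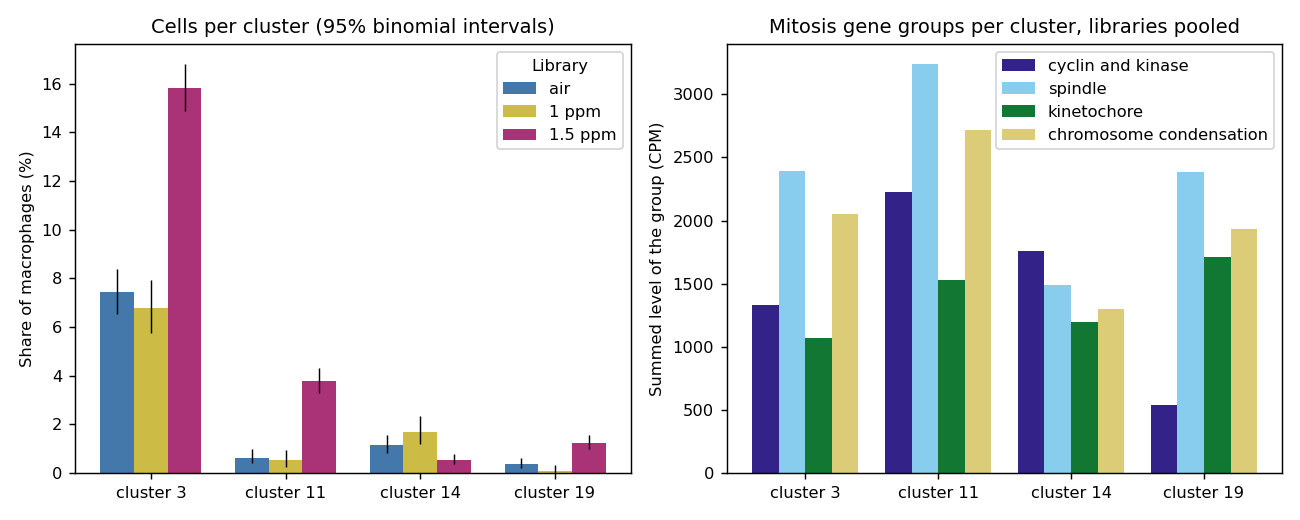
Left, the share of each library's alveolar-macrophage-like cells in the 4 clusters with the most mitosis gene transcripts, with 95% binomial intervals. Right, the summed level (CPM) of the 4 gene groups in each cluster over all libraries. Clusters 3, 11 and 19 take a larger share of the 1.5 ppm library than of air, cluster 14 a smaller one, and cluster 19 has the least of the cyclin and kinase genes.

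Outside the alveolar-macrophage-like cells, most classes had too few cells of 5000 UMIs to set their shares apart. UMIs of at least 10 of the 32 genes were found in 1174 of 10683 alveolar-macrophage-like cells over all libraries (interval 10.4 to 11.6%). They were found in 2 of 147 C1q- or monocyte-like cells (1.36%, 0.165 to 4.83) and 1 of 74 migratory dendritic-like cells (1.35%, 0.0342 to 7.30). Both intervals lay below the pooled interval of alveolar-macrophage-like cells. They overlapped those of the air library (4.77 to 6.37%) and the 1 ppm library (4.20 to 6.13%) taken alone. UMIs of at least 10 of the 32 genes were also found in 1 of 30 T- or NK-like cells (3.33%, 0.0844 to 17.2) and 2 of 20 airway epithelial-like cells (interval 1.23 to 31.7%). The same held for 6 of 44 cells of the clusters left unnamed, 9 and 10 (13.6%, 5.17 to 27.4). Of 32 alveolar epithelial-like cells none had them, with an upper Clopper-Pearson bound of 10.9% and a limit of 9.38% by the share that 3 counts would give. Cluster 9 (375 cells, 291 of them from 1.5 ppm) passed 9 alveolar macrophage markers but was left unnamed. Its median was 1106 UMIs, and erythrocyte markers such as Hbb-bs led its top genes. The 32 genes summed to 2368 CPM in it, and it is not part of the alveolar-macrophage-like values. Neutrophils do not divide, so the neutrophil-like cells gave a level to set beside these; 79 of the 91 came from the 1.5 ppm library, and their median was 2389 UMIs. Of the 32 genes 8 had no UMI in them, among them Plk1, Aurka, Aurkb and Cdc20. In those cells 1 UMI stood for 3.71 CPM. The named genes stood at 7.29 CPM (Aurka) to 12.6 CPM (Aurkb) in alveolar-macrophage-like cells of air, so 0 UMIs is near the counting floor. Cks2 stood at 334 CPM in them, beside 66.5 CPM in alveolar-macrophage-like cells of air and 115 CPM in those of 1.5 ppm. Hmgb2 stood at 215 CPM, above the 199 CPM of air and below the 335 CPM of 1.5 ppm.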

How the data were processed

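Deposited per cell barcode and gene were whole-number UMI counts, which the authors obtained from Cell Ranger 8.0.0 on GRCm39, per the submitters' processing notes, from a 3′ kit, per the labels' protocols. The sources used here do not give whether introns or strand were used in counting. Barcodes with at least 500 UMIs, at least 300 genes and at most 10% mitochondrial UMIs were kept. No doublet caller was run, so doublets remain.

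Cells were scaled, log transformed and clustered on 2000 variable genes (30 principal components, 15 neighbours, Leiden resolution 1) without mitosis, S phase, cell cycle control and histone genes (scanpy 1.11.5, leidenalg 0.10.2, igraph 0.11.9, numpy 2.4.6, scipy 1.17.1, pandas 2.3.3, Python 3.11.15). A cluster was named from at least 3 markers, each with a UMI in at least 25% of its cells and at 25% or more of the highest cluster's level. A cluster with few UMIs stayed unnamed if its top genes held no marker of its best-matching list. Any cluster stayed unnamed if its top genes held more markers of another list. All mitosis gene values came from raw counts summed per library. A log2 ratio adds 1 UMI to each sum. Ratios and intervals were tested on simulated counts, drawn independently for each gene from Poisson distributions. No cells were simulated, so that check cannot tell how the intervals hold when few cells carry most UMIs.

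The 32 genes, the comparison lists and the markers were chosen with earlier results of these data known. All 32 are accounted for: full values go to the 3 largest and the smallest ratio of 1.5 ppm to air in each group and to any gene past 1.5-fold at 1 ppm, and up to 4 genes by absolute log2 ratio to each comparison list. The limit of 10 UMIs, the values without cluster 14, the bands of mitochondrial share and the clusters and motifs described were chosen after seeing the data. Other cell filters, normalizations, thresholds and cycling rules were tried.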

Additional observations from a re-analysis of the deposited data

Results flagged for a closer look

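A signal was also present in barcodes that the comparisons leave out. In barcodes with over 10% mitochondrial UMIs (1816, 990 and 659 in air, 1 ppm and 1.5 ppm), the 32 mitosis genes summed to 775 CPM in air (95% Poisson interval 757 to 794), 712 CPM at 1 ppm (688 to 737) and 1654 CPM at 1.5 ppm (1590 to 1720). The level at 1.5 ppm lay above that of the air library, as in the kept cells, and in each library it was below that of the kept alveolar-macrophage-like cells.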

How the results depend on the processing

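No paired analysis was possible because each group is 1 library. Of 288 ratios of single genes for 1.5 ppm to air under 9 alternatives, 287 kept their sign, and the median stayed between 0.59 and 1.42 (0.76 and 1.74 against 1 ppm, -0.28 and -0.05 for 1 ppm against air). Not every alternative could change a sign. A gene minimum of 30 UMIs leaves each ratio as it was, and centring on the median of all genes (-0.04) shifts all alike. In cells with 2.5 to 4% mitochondrial UMIs the counts of 1.5-fold higher genes were 16 and 20, the medians 0.59 and 0.76 (0.32 and 0.30 in cycling cells) and the sums 1538, 1394 and 2436 CPM. There Ccnb2 turned to -0.10 against 1 ppm. A stricter cell filter gave 0.86 and 1.01 (0.66 and 0.65 in cycling cells), with sums of 1436, 1305 and 2793 CPM. All kept cells gave 1285 and 2679 CPM in air and at 1.5 ppm, and leaving out cluster 12 gave 1337 and 2788 CPM. Averaging each cell's CPM gave 1.27 against 1 ppm, 0.94 and 1.00 in cycling cells, and sums of 932, 811 and 1966 CPM. Without the deepest 5% of cells the medians were 1.42, 1.74 and, for 1 ppm against air, -0.28 (1.25, 1.36 and, for 1 ppm against air, -0.069 in cycling cells), the sums 934, 780 and 2484 CPM and the cycling share at 1.5 ppm 49.8%. At 2-fold, 16 genes were higher at 1.5 ppm than in air. The cycling rule moved the most: a limit of 2 UMIs gave shares of 66.7%, 62.4% and 70.9% and medians of 0.90 and 0.94, 5 UMIs gave 16.6%, 14.4% and 28.3% with 0.27 and 0.24, thinning to 3000 gave 23.5%, 19.1% and 33.1% with 0.47 and 0.38, and 10 UMIs gave 6.17%, 5.25% and 17.2% with the sign reversed, -0.33 and -0.26. By construction a higher limit takes fewer cells. Apart from that, the causes were not tested. Depth limits the low genes: Cdc20, Plk1 and Aurka had under 10 CPM in air.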
